A study of Mus musculus with 120 samples.

Results

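The mitochondrial carriers that move adenine nucleotides and phosphate across the inner membrane were followed in soleus and heart of mice that lack the muscle form of the ADP/ATP translocator, to ask which of the related genes were higher where Slc25a4 was lost. The set was chosen by name, for function, with earlier results of these data known. It holds 7 of the 53656 genes in the deposited tables: the translocators Slc25a4, Slc25a5 and Slc25a31, the phosphate carrier Slc25a3, and the ATP-Mg/phosphate carriers Slc25a23, Slc25a24 and Slc25a25. Of these, 6 passed the filter on low counts in soleus and 7 in heart, the exception being Slc25a31 in soleus. Poly(A) RNA was sequenced from 96 libraries in 16 groups of 6, covering 4 mutant strains on a C57BL/6Eij background that carries intact Nnt (Nnt+/+). ANT1-/- mice lack Slc25a4, and the other strains carry missense changes in genes of the mitochondrial DNA (mtDNA): ND5S204F and ND6P25L in complex I subunits, and CO1V421A in a complex IV subunit. Mice entered the study at 16 weeks of age. Resting mice were handled only. Trained mice ran in sessions of 45 min, set to 50% of each animal's best running capacity and held on every 2nd day over 8 weeks, with tissue taken 6 days after the last one. The 3 mtDNA strains served here as the reference for ANT1-/-, so each difference is between mutants. The control B6 columns could not be tied to samples and were not analysed here. Each library within a tissue has its own code in the labels, which do not say that codes stand for separate animals, so the p-values measure the spread between these libraries.

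The translocators exchange ADP from the cytosol for ATP made in the matrix, 1 molecule for 1, and so connect oxidative phosphorylation to the rest of the cell. Slc25a4 encodes ANT1, the form of heart and skeletal muscle, Slc25a5 encodes ANT2, found in many tissues, and Slc25a31 encodes ANT4, known from male germ cells. Slc25a3 imports the phosphate that ATP synthase needs. The ATP-Mg/phosphate carriers exchange ATP-Mg for phosphate in response to calcium and so change the total nucleotide content of the matrix, where the translocators leave it constant.

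All 7 are protein-coding genes with several exons. On mm10 (GRCm38, GENCODE vM21) Slc25a4 spans chr8:46206797-46211284 on the minus strand, Slc25a5 chrX:36795651-36798807 on the plus strand and Slc25a31 chr3:40708855-40726096 on the plus strand. Slc25a3 spans chr10:91116574-91124059 on the minus strand. Slc25a23 lies at chr17:57043711-57059863 (minus), Slc25a24 at chr3:109123149-109168457 (plus) and Slc25a25 at chr2:32414487-32451445 (minus). The coding sequences of Slc25a4 and Slc25a5 were identical at 77.4% of 894 bases, with a longest shared run of 20 bases between their transcripts. Slc25a4 and Slc25a31 were identical at 66.9%, with a longest shared run of 14 bases. A read that covers more than such a run can tell these transcripts apart. Exons of Slc25a25 share 379 bases with Naif1 on the opposite strand, and exons of Slc25a23 share 168 bases with the antisense transcript Gm17168. The sources used here do not say whether counting used strand, so reads from these overlaps cannot be told apart. The expected counts of Slc25a25 were whole numbers in 10 of 48 soleus and 4 of 48 heart libraries. Most of its values therefore hold reads of which only a fraction was assigned to the gene, and where the rest went was not tested. The other genes had whole counts in all 48 libraries of each tissue, except Slc25a5 in heart with 42 of 48.

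The promoters of the genes on which the results turn are printed for comparison: Slc25a4, which was lost, Slc25a5 and Slc25a3, which were higher together in ANT1-/- soleus, and the 3rd of 3 listed starts of Slc25a25, a gene that was higher in trained ANT1-/- heart. That start was chosen because it alone of the 3 holds a match to the cyclic AMP response element, and counts per gene do not show which start was used. Each runs 5′ to 3′ from 250 bases before to 50 bases after the start of the gene in RefSeq (GRCm38.p6). They cover chr8:46211013-46211312 (minus strand), chrX:36795347-36795646 (plus), chr10:91123918-91124217 (minus) and chr2:32424017-32424316 (minus), in that order. Capitals mark matches to any of 6 short motifs on either strand.
Slc25a4: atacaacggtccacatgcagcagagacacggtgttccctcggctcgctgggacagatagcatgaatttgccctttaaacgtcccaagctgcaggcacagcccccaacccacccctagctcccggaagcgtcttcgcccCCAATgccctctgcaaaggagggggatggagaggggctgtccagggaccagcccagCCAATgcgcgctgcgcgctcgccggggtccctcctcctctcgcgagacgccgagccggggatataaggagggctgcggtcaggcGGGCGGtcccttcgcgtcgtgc
Slc25a5: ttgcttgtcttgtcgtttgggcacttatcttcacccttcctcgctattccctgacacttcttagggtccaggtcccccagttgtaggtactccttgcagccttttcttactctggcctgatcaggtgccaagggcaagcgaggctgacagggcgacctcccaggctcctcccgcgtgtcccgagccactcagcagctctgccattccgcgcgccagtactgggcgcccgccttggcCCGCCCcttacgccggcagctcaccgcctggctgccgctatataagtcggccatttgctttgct
Slc25a3: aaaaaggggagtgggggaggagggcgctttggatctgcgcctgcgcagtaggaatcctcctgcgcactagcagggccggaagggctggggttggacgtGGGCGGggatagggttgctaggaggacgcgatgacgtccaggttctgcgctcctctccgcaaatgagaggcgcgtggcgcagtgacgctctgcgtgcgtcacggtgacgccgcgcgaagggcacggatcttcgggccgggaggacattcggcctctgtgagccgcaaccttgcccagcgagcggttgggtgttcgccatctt
Slc25a25 (start 3): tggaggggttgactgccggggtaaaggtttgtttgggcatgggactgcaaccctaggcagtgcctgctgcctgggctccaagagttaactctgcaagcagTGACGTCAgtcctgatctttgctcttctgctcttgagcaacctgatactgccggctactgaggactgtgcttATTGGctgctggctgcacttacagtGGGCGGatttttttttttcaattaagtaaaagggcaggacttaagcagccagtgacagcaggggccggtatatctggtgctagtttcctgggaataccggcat
The motifs searched were the estrogen-related receptor element TCAAGGTCA (in 0.424% of 32817 RefSeq promoters of this length), the NRF1 core CGCATGCG (1.862%), the cyclic AMP response element TGACGTCA (1.792%), the GC box GGGCGG (35.631%), the TATA box TATAAA (13.621%) and the CCAAT box (37.389%). None of the members' promoters held the letters of the first, the NRF1 core or the TATA box in this window. The cyclic AMP response element occurred once among the members, in the 3rd promoter of Slc25a25, starting 150 bases before the start (−150). A GC box began at +29 in Slc25a4, −14 in Slc25a5 and −152 in Slc25a3, and Slc25a4 alone of those 3 held CCAAT boxes, at −112 and −56. GC content was 65.7% in Slc25a4 and Slc25a3, 61.0% in Slc25a5 and 52.3% in the 3rd promoter of Slc25a25, against a median of 52.7% over all promoters.

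In units of 1e6 assigned counts, libraries held 10.2 to 20.7 in soleus and 19.7 to 26.5 in heart. In soleus, transcripts of the mtDNA took 33.99 to 47.6% of counts in ANT1-/- and 12.9 to 24.8% in the mtDNA strains, without overlap. In heart the ranges were 21.6 to 39.4% and 9.23 to 32.1%. Values per gene are therefore given as counts per 1e6 counts (CPM) after scaling by edgeR's trimmed mean of M values (TMM), which sets the bulk of genes level, and the scale by all counts is given beside them where it matters. With all counts as the library size, the median gene of ANT1-/- stood at −0.69 (resting soleus), −0.57 (trained soleus), −0.27 (resting heart) and −0.26 (trained heart) log2 units from the mtDNA strains. Fibroblast and matrix markers summed to 569 to 1302 CPM in ANT1-/- soleus and 742 to 5457 CPM in the mtDNA strains, and 10 of 12 passed the test as lower in resting ANT1-/- soleus, where 25.4% of 13935 genes were lower. Of 10 macrophage markers 8 were lower there, as were 7 of 7 tendon markers. Ventricular markers summed to 34218 to 61165 CPM in ANT1-/- heart and 4494 to 58137 CPM in the mtDNA strains. The lowest was the resting ND5 library coded B80, whose values stand apart in heart and whose code carries the trained label in soleus. Atrial markers ran from 66.04 to 35802 CPM across the mtDNA hearts and from 86.3 to 24951 CPM across ANT1-/- hearts.

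In unexercised mtDNA strains Slc25a4 was the most abundant of the set per length. Its mean in soleus was 2310 fragments per kilobase of transcript (FPKM, the authors' deposited unit), against 1022 FPKM for Slc25a3, 79.0 for Slc25a5, 18.1 for Slc25a23, 9.82 for Slc25a25 and 2.67 for Slc25a24. In heart the order of the first 4 was the same, at 2063 FPKM for Slc25a4, 1041 for Slc25a3, 214 for Slc25a5 and 20.6 for Slc25a23. Slc25a25 followed at 4.74, Slc25a24 at 3.15 and Slc25a31 at 0.141 FPKM. Neighbours whose ranges over libraries overlapped were Slc25a23 with Slc25a25 and Slc25a25 with Slc25a24 in soleus, and Slc25a4 with Slc25a3 and Slc25a25 with Slc25a24 in heart, where Slc25a4 reached down to the range of Slc25a3 in B80 only (419.9 FPKM). Between the tissues of these mice, Slc25a5 was lower in soleus by a log2 difference of −1.42 ± 0.09 (SE, adjusted p = 5.28e-26, edgeR quasi-likelihood test). Slc25a23 was also lower in soleus, at −0.49 ± 0.10 (adjusted p = 4.59e-06), and Slc25a25 was higher, at 1.06 ± 0.18 (adjusted p = 3.42e-07). These 3 of 6 tested members stand beside 77.2% of all genes that differed between the tissues. Slc25a4 differed by 0.20 ± 0.13 (adjusted p = 0.148), Slc25a24 by −0.27 ± 0.15 (adjusted p = 0.0932) and Slc25a3 by 0.00 ± 0.10 (adjusted p = 0.989), none of which passed. Slc25a24 passed when any 1 of 5 libraries was left out: ND6P25L soleus I85, ND5S204F soleus B70 or B85, CO1V421A soleus E64, or ND6P25L heart I95 (adjusted p down to 0.0261).

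Loss of the targeted transcript was seen in all 24 libraries labelled ANT1-/-. In resting soleus Slc25a4 had 10.96, 13.9 and 22.1 CPM (lowest, median and highest of 6) in ANT1-/- and 2170, 3139 and 3603 CPM in the 18 libraries of the mtDNA strains. In resting heart the values were 2.24, 4.03 and 6.13 CPM against 471, 3529 and 3883 CPM. No ANT1-/- library came near the others in either tissue or arm, and the lowest reference value, 471 CPM, belonged to B80. The log2 difference was −7.73 ± 0.19 (adjusted p = 1.05e-32) in resting soleus, −8.28 ± 0.20 in trained soleus, −9.51 ± 0.38 in resting heart and −10.27 ± 0.40 in trained heart. Reads did not vanish: ANT1-/- libraries still held 64 to 238 counts of Slc25a4 in soleus and 39 to 108 in heart. The remaining level was higher in soleus than in heart relative to the reference, with a difference between the log2 effects of 1.82 ± 0.27 at rest (adjusted p = 8.91e-07) and 2.02 ± 0.28 after training (adjusted p = 1.34e-07).

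**Figure D1:**
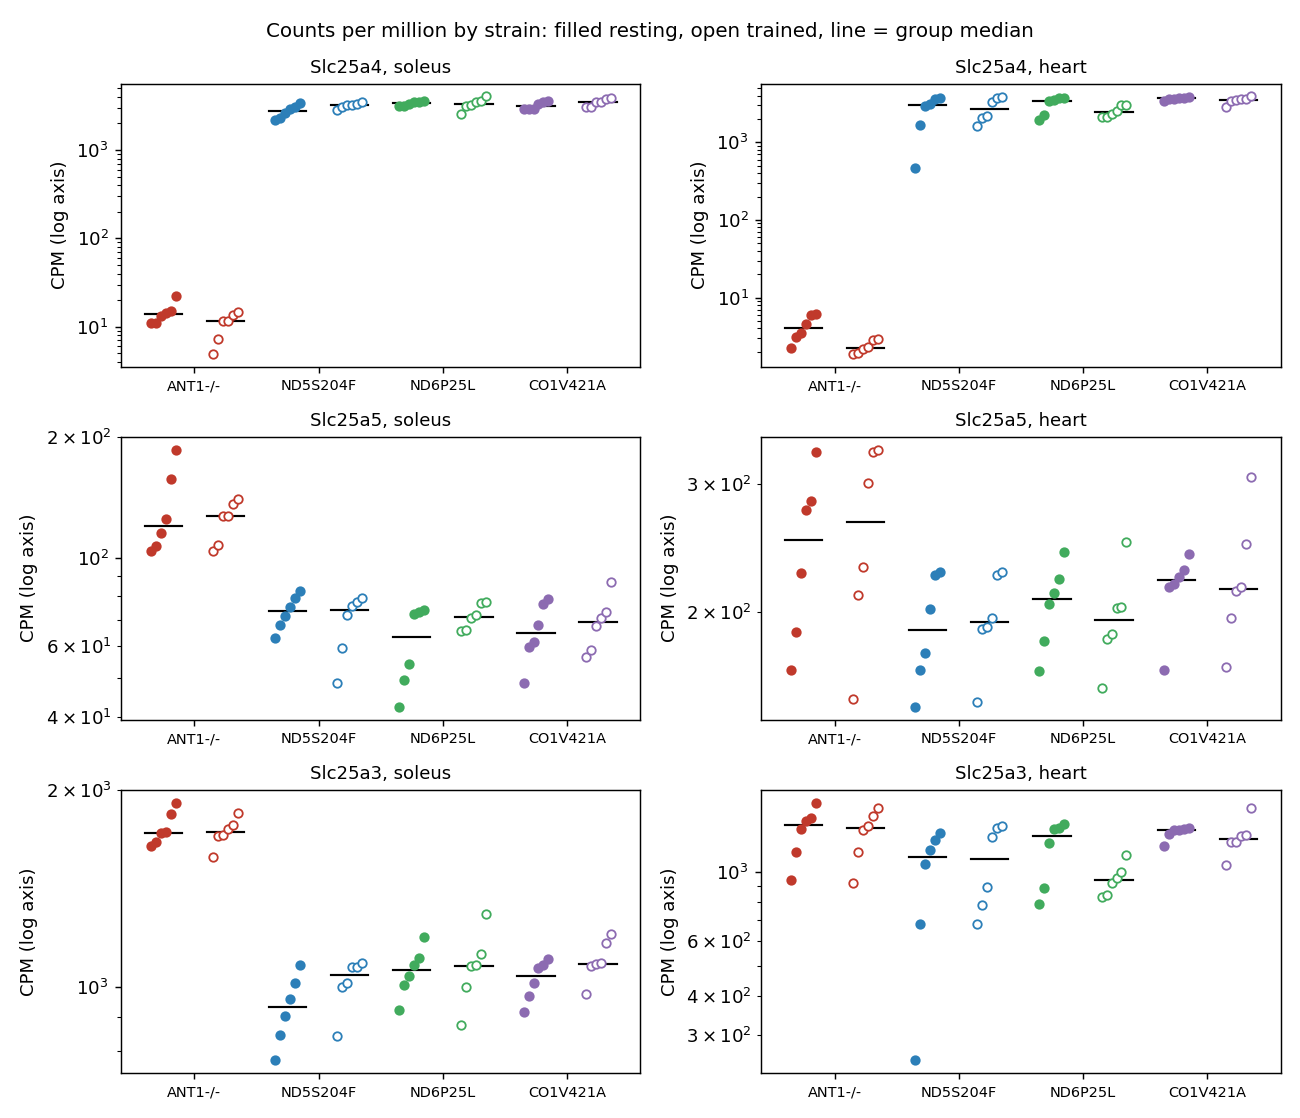
CPM (log axis) of Slc25a4, Slc25a5 and Slc25a3 in every library of soleus (left) and heart (right) by strain, filled for resting and open for trained, with a line at the group median. Slc25a4 lies at or below 22.1 CPM in ANT1-/-, and Slc25a5 and Slc25a3 of ANT1-/- lie above every other library in soleus but not in heart.

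Slc25a5, the translocator of most other tissues, was higher in ANT1-/- soleus. At rest it had 104, 120 and 186 CPM (lowest, median, highest) in ANT1-/- against 42.4, 69.8 and 82.6 CPM in the mtDNA strains. After training it had 104, 127 and 140 CPM against 48.7, 71.2 and 86.9 CPM. All 6 ANT1-/- libraries of each arm lay above all 18 of the reference. How many of all genes separated in this way was not counted. Of all genes, 22.4% passed as higher at rest and 21.1% after training. The log2 difference of Slc25a5 was 0.99 ± 0.11 at rest, a 1.99-fold higher level (adjusted p = 1.25e-10), and 0.83 ± 0.11 after training, 1.77-fold (adjusted p = 2.05e-08). The medians of the 3 reference strains at rest were alike, at 73.4 CPM in ND5S204F, 63.3 in ND6P25L and 64.8 in CO1V421A. The size depends on the scale: with all counts as the library size the difference was 0.34 ± 0.12 (adjusted p = 0.0102) at rest and 0.28 ± 0.12 (adjusted p = 0.0327) after training. On that scale 2 of 6 resting and 4 of 6 trained ANT1-/- libraries lay above all of the reference. The median gene stood at −0.69 and −0.57 there. In deposited FPKM, which also divides by all reads, resting ANT1-/- soleus ran from 73.6 to 139.9 for Slc25a5, with a mean of 98.4 against 79.0.

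In heart Slc25a5 did not pass the test. Resting ANT1-/- libraries had 166, 251 and 332 CPM against 148, 214 and 241 CPM, and trained ones 151, 266 and 334 CPM against 150, 199 and 306 CPM. The groups overlapped, with 3 resting and 2 trained ANT1-/- hearts above every reference library. The log2 difference was 0.27 ± 0.13 (adjusted p = 0.414) at rest and 0.34 ± 0.13 (adjusted p = 0.128) after training, and without the trained ANT1-/- library A71 the latter passed at 0.45 (adjusted p = 0.0269). With all counts as the library size the resting value changed sign, at −0.02 (adjusted p = 0.888), and the trained one was 0.03 (adjusted p = 0.878).

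Slc25a31, the germ cell translocator, was at or near 0 in soleus. Of the 12 ANT1-/- soleus libraries 9 had no count and the highest had 2, and of the 36 reference libraries 31 had none and the highest had 1. A count of 0 allows up to 3 counts, which is 0.207 to 0.336 CPM in the ANT1-/- libraries, so no fold is given. In heart it had 0.238, 0.334 and 0.473 CPM in resting ANT1-/- and 0.037, 0.202 and 1.12 CPM in the reference, from at most 24 counts a library. The groups overlapped, with 1 trained ANT1-/- library above all of the reference, and the log2 differences were 0.43 ± 0.50 (adjusted p = 0.783) at rest and 0.54 ± 0.50 (adjusted p = 0.610) after training. Neither passed the test.

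Summed per length, the translocator transcripts of ANT1-/- stayed far below those of the other strains. In resting soleus the FPKM of Slc25a4, Slc25a5 and Slc25a31 together were 105 ± 25.6 (SD, n = 6) in ANT1-/-, with a range of 78.5 to 145, and 2389 in the mtDNA strains, with a range of 1968 to 2622. That is 4.40% of the reference level, or 22.7-fold lower, and 4.08% in trained soleus. In resting heart the sum was 212 ± 45.6 (SD, n = 6) against 2277 FPKM, or 9.32%, with ranges of 144 to 279 and 636 to 2713, and in trained heart it was 10.2%. No library of ANT1-/- reached the lowest reference library in either tissue. Slc25a5 made up 93.4 ± 2.3% (SD, n = 6) of the sum in resting ANT1-/- soleus and 98.7 ± 0.45% in resting ANT1-/- heart, against 3.36 ± 0.98% and 10.5 ± 6.2% (SD, n = 18) in the mtDNA strains. From CPM in place of FPKM the percentages of the reference were 4.65 and 3.96% in soleus and 7.54 and 8.39% in heart. These sums carry no test.

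**Figure D2:**
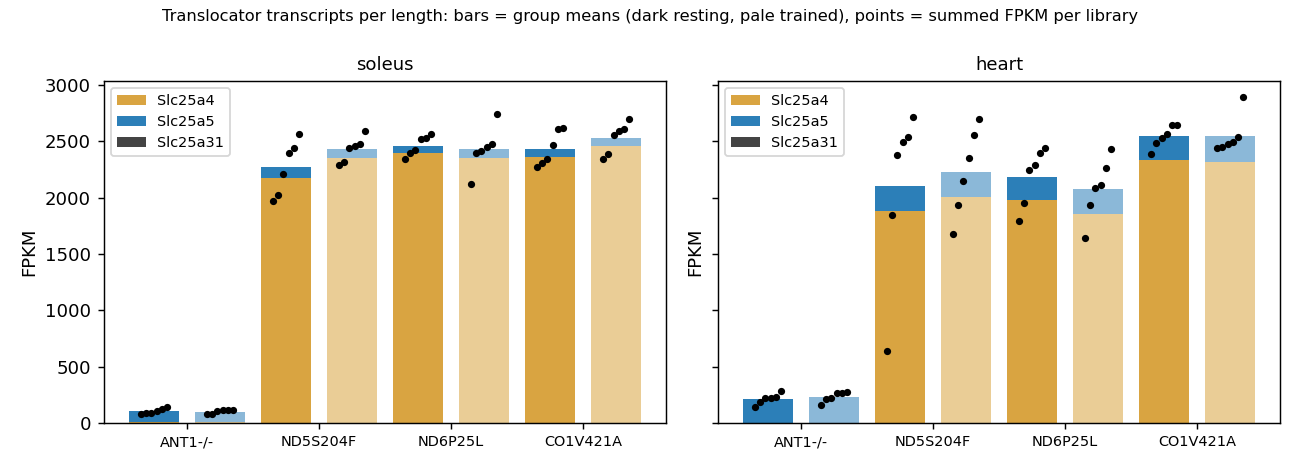
Mean FPKM of Slc25a4, Slc25a5 and Slc25a31 stacked by strain in soleus (left) and heart (right), dark for resting and pale for trained, with a point for the summed FPKM of each library. The ANT1-/- bars are almost all Slc25a5 and stand at 4.40% (resting soleus) and 9.32% (resting heart) of the reference level, and Slc25a31 is too low to be seen.

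Slc25a3, which brings in the phosphate, was higher in ANT1-/- soleus in much the same way as Slc25a5. Resting libraries had 1643, 1720 and 1912 CPM in ANT1-/- and 774, 1014 and 1193 CPM in the mtDNA strains. Trained libraries had 1582, 1728 and 1847 CPM against 842, 1079 and 1293 CPM. The groups did not overlap in either arm, and here too the share of all genes that separated so was not counted. The log2 difference was 0.80 ± 0.06 at rest, 1.74-fold (adjusted p = 5.65e-15), and 0.70 ± 0.06 after training, 1.62-fold (adjusted p = 6.37e-13). With all counts as the library size it was 0.16 ± 0.05 in both arms (adjusted p = 0.00486 and 0.00543), and 4 of 6 resting and 3 of 6 trained ANT1-/- libraries lay above all of the reference. In heart, 940, 1415 and 1667 CPM in resting ANT1-/- overlapped 249, 1297 and 1430 CPM, where 249 CPM was B80. The log2 difference of 0.23 ± 0.18 (adjusted p = 0.657) did not pass, nor did 0.15 (adjusted p = 0.790) without B80, nor 0.27 ± 0.18 (adjusted p = 0.424) in trained heart. On the scale of all counts the heart values were −0.04 and −0.01, with the opposite sign. Slc25a3 has alternative exons that differ between muscle and other tissues, and counts per gene do not separate them.

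Across these comparisons, 5 of the 6 members tested in resting soleus passed the test, 2 higher and 3 lower, where 47.7% of all 13935 genes did, 22.4% higher and 25.4% lower. In trained soleus it was again 5 of 6, 2 higher and 3 lower, against 43.5% of genes (21.1% higher, 22.4% lower). In resting heart 1 of 7 passed, Slc25a4, against 0.916% of 15723 genes (0.617% higher, 0.299% lower). In trained heart 2 of 7 passed, 1 in each direction, against 4.78% (3.45% higher, 1.32% lower). The median log2 difference of the members and of all genes was −0.03 and −0.04 in resting soleus, −0.03 and −0.02 in trained soleus, 0.23 and 0.01 in resting heart, and 0.27 and 0.01 in trained heart. The members' count in soleus is to be read against that large share of all genes.

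The nuclear genes of the respiratory chain and ATP synthase were higher as well in ANT1-/- soleus on the TMM scale: 71 of 71 passed at rest, with a median log2 difference of 0.78, and 70 of 71 after training, with a median of 0.66. Of all genes, 22.4% and 21.1% passed as higher there. With all counts as the library size the median gene stood at −0.69 and −0.57, and these 71 genes were not compared on that scale. In heart 0 of 71 passed at rest and 2 after training. The carriers were therefore also compared with these 71 genes as the scale of each library. Relative to them, Slc25a3 differed by 0.04 ± 0.06 (adjusted p = 0.479) in resting and 0.06 ± 0.06 (adjusted p = 0.282) in trained soleus. Slc25a5 differed by 0.23 ± 0.13 (adjusted p = 0.0895) at rest and 0.19 ± 0.13 (adjusted p = 0.147) after training, and neither passed. The resting value passed when the ANT1-/- soleus library A75 or A82 was left out, and over all single libraries it ran from 0.10 to 0.30 (adjusted p = 0.0352 to 0.482). The trained value passed without A81 (adjusted p = 0.0489). In heart Slc25a5 differed by −0.06 ± 0.16 (adjusted p = 0.808) and 0.00 ± 0.16 (adjusted p = 0.9996), and Slc25a3 by 0.00 ± 0.07 (adjusted p = 0.962) and −0.03 ± 0.07 (adjusted p = 0.788). Per length, the ratio of Slc25a5 to Slc25a3 was 0.0837 ± 0.0131 (SD, n = 12) in ANT1-/- soleus and 0.0769 ± 0.0163 (SD, n = 36) in the mtDNA strains. The ratio of all translocator transcripts to Slc25a3 was 0.0888 against 2.35 in soleus and 0.216 against 2.17 in heart.

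Most genes lie lower on the scale of the respiratory chain. In resting soleus 89.2% of genes passed, 1.77% higher and 87.4% lower, and 3 of 6 members did, all lower. In trained soleus 84.8% passed, 2.05% higher and 82.7% lower, with 3 of 6 members lower. In heart 0.611% passed at rest (0.235% higher, 0.375% lower) and 0.903% after training (0.216% higher, 0.687% lower), with 1 and 2 of 7 members. The members' median was −0.79 beside −0.80 for all genes in resting soleus, −0.67 beside −0.65 in trained soleus, −0.06 beside −0.30 in resting heart and −0.03 beside −0.28 in trained heart.

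**Figure D3:**
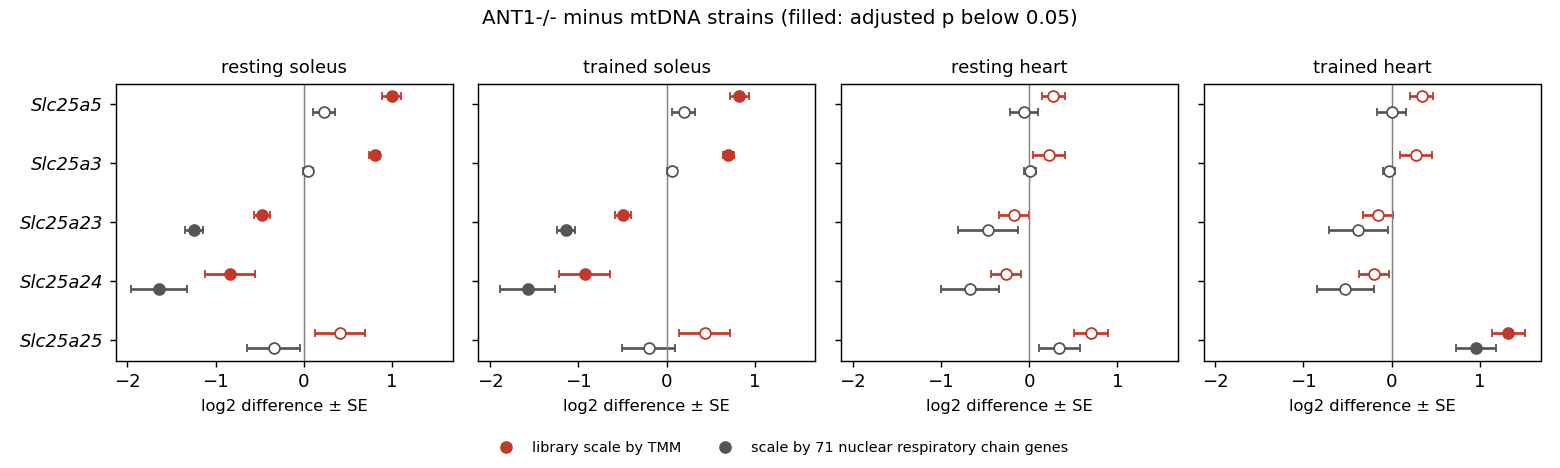
Log2 difference of ANT1-/- minus the mtDNA strains (± SE) for Slc25a5, Slc25a3, Slc25a23, Slc25a24 and Slc25a25 in the 4 settings, red on the TMM scale and grey on the scale of 71 nuclear respiratory chain genes, filled where the adjusted p is below 0.05. Slc25a5 and Slc25a3 in resting soleus move from 0.99 and 0.80 to 0.23 and 0.04 between the scales, and Slc25a25 in trained heart is filled on both.

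The ATP-Mg/phosphate carriers did not follow this pattern. Slc25a23 was lower in ANT1-/- soleus, with 15.6, 18.3 and 20.8 CPM against 19.6, 25.3 and 35.4 CPM at rest and 16.7, 18.9 and 23.1 CPM against 22.2, 26.1 and 37.2 CPM after training. In each arm 4 of 6 ANT1-/- libraries lay below all of the reference. The log2 differences were −0.48 ± 0.09 (adjusted p = 3.15e-05) and −0.49 ± 0.09 (adjusted p = 2.26e-05). With all counts as the library size they were −1.13 and −1.04, where the median gene stood at −0.69 and −0.57. Relative to the respiratory chain Slc25a23 differed by −1.24 ± 0.10 (adjusted p = 4.70e-14) and −1.14 ± 0.10 (adjusted p = 8.49e-13), where the median gene stood at −0.80 and −0.65. In heart it ran from 24.9 to 53.7 CPM in resting ANT1-/- and from 28.005 to 74.7 CPM in the reference, with differences of −0.17 ± 0.17 (adjusted p = 0.742) and −0.15 ± 0.17 (adjusted p = 0.674).

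Slc25a24 was also lower in ANT1-/- soleus, but not with a connective tissue score as a covariate. It had 2.53, 3.40 and 6.75 CPM in resting ANT1-/- against 2.99, 5.36 and 19.1 CPM, and 2.84, 3.25 and 4.25 CPM against 3.91, 5.32 and 14.3 CPM after training. The groups overlapped, with 3 resting and 5 trained ANT1-/- libraries below all of the reference. Its log2 difference was −0.84 ± 0.28 (adjusted p = 0.0136) at rest and −0.93 ± 0.29 (adjusted p = 0.00780) after training. With all counts as the library size it was −1.53 (adjusted p = 1.92e-05) and −1.48 (adjusted p = 4.01e-05), with 5 of 6 resting and 6 of 6 trained libraries below all of the reference. Relative to the respiratory chain it was −1.64 ± 0.31 and −1.57 ± 0.31. The median gene stood at −0.69 and −0.57 with all counts and at −0.80 and −0.65 relative to the respiratory chain. With the connective tissue score (fibroblast, matrix and tendon markers) as a covariate Slc25a24 differed by 0.22 (adjusted p = 0.586) and −0.04 (adjusted p = 0.924). Those markers were themselves lower in ANT1-/- soleus, so the covariate cannot separate strain from tissue make-up. Against single strains at rest Slc25a24 differed by −1.54 (adjusted p = 0.000134) from ND5S204F, −0.69 (adjusted p = 0.101) from CO1V421A and −0.29 (adjusted p = 0.551) from ND6P25L. In bulk tissue, fewer cells of a type and less RNA per cell cannot be told apart. In heart Slc25a24 had 8.08 CPM (median of resting ANT1-/-) against 9.16, a difference of −0.26 ± 0.17 (adjusted p = 0.582), and −0.20 ± 0.17 (adjusted p = 0.573) after training.

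Slc25a24 was the only tested member that differed among the mtDNA strains themselves in resting soleus (F = 8.98, adjusted p = 0.0157), where 8.87% of genes did. Its medians were 10.2 CPM in ND5S204F, 4.41 in ND6P25L and 5.27 in CO1V421A. Without the ND5S204F library B70 or B85 the difference no longer passed (adjusted p up to 0.165). In resting heart 0 of 7 members passed, against 3.36% of genes by edgeR, 529 in all with 3555 at an unadjusted p under 0.05, and DESeq2 called 1106. Without B80 that edgeR count was 3.

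Slc25a25, a calcium-binding carrier of the same subfamily, was higher in ANT1-/- heart after training. Trained ANT1-/- hearts had 13.4, 22.9 and 50.7 CPM against 7.60, 10.2 and 20.9 CPM, and 4 of 6 lay above all of the reference. The log2 difference was 1.32 ± 0.19, 2.499-fold (adjusted p = 1.06e-05), and with all counts as the library size 0.98 (adjusted p = 0.000357). It passed against each strain alone, from 1.04 (CO1V421A, adjusted p = 0.0234) to 1.58 (ND5S204F, adjusted p = 0.000176), comparisons that share the ANT1-/- libraries. Relative to the respiratory chain it was 0.95 ± 0.23 (adjusted p = 0.0218), and this call was lost without the trained ANT1-/- library A73 or A69, over a range of 0.78 to 1.10.

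In resting heart Slc25a25 did not pass, with 11.5, 16.5 and 36.2 CPM against 7.16, 12.2 and 19.9 CPM, 2 of 6 above all of the reference, and a difference of 0.70 ± 0.20 (adjusted p = 0.0691). The threshold was crossed when the ANT1-/- libraries A58, A63 or A80 or the ND5S204F library B21 were left out (0.76 to 0.82), while without ANT1-/- A72 the value was 0.43 (adjusted p = 0.502). It was also crossed with the atrial score as a covariate (0.70, adjusted p = 0.0167) and against ND5S204F alone (0.99, adjusted p = 0.0215). In soleus it had 12.7, 29.9 and 38.1 CPM at rest against 7.30, 21.6 and 48.3 CPM, and the groups overlapped. The differences of 0.41 ± 0.28 (adjusted p = 0.232) and 0.43 ± 0.29 (adjusted p = 0.225) did not pass and were −0.23 and −0.13 with all counts as the library size.

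**Figure D4:**
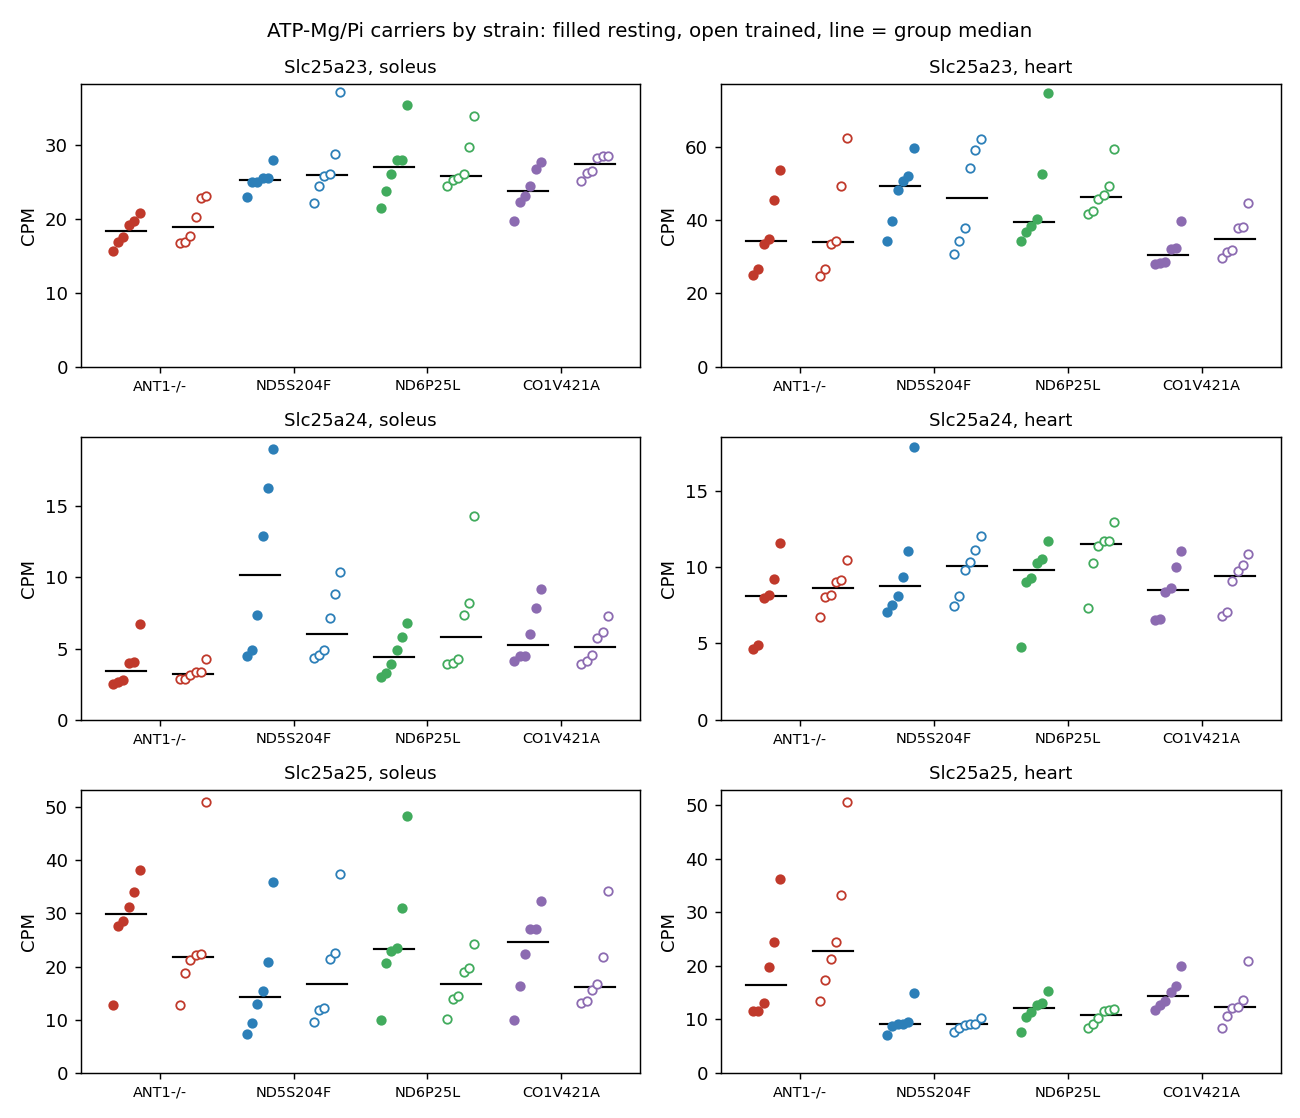
CPM (linear axis) of Slc25a23, Slc25a24 and Slc25a25 in every library of soleus (left) and heart (right) by strain, filled for resting and open for trained, with a line at the group median. ANT1-/- lies low for Slc25a23 and Slc25a24 in soleus, the resting ND5S204F libraries spread up to 19.1 CPM for Slc25a24, and 4 of 6 trained ANT1-/- hearts lie above every reference library for Slc25a25.

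Whether the ANT1-/- effect differed between the tissues was tested directly as the effect in soleus minus that in heart. At rest 3 of 6 members passed, against 11.1% of 16172 genes, and after training 2 of 6, against 9.26%. Apart from Slc25a4 itself, the effect on Slc25a5 was larger in soleus by 0.76 ± 0.17 (adjusted p = 0.00168) at rest and 0.53 ± 0.17 (adjusted p = 0.0377) after training. With all counts as the library size these were 0.37 (adjusted p = 0.0922) and 0.26 (adjusted p = 0.291), and the trained call was also lost without mtDNA-encoded genes in the library size (0.51, adjusted p = 0.0520), with no filter on low counts (0.51, adjusted p = 0.0971) and when any 1 of 21 of the 48 libraries was left out (adjusted p up to 0.125). The effect on Slc25a3 was larger in soleus by 0.61 ± 0.20 at rest (adjusted p = 0.0330) and 0.47 ± 0.20 after training (adjusted p = 0.128). The resting call on Slc25a3 was lost with all counts as the library size (0.20, adjusted p = 0.268), with no filter on low counts (0.59, adjusted p = 0.0757) and without any 1 of 7 libraries: ANT1-/- soleus A58, A4 or A18, ND5S204F soleus B70, or ANT1-/- heart A63, A70 or A80. Slc25a23 differed by −0.28 ± 0.19 (adjusted p = 0.379) and −0.30 ± 0.19 (adjusted p = 0.361), Slc25a24 by −0.53 ± 0.32 and −0.68 ± 0.32, and Slc25a25 by −0.25 ± 0.36 and −0.86 ± 0.37, none passing. On the scale of all counts Slc25a23 at rest (−0.69, adjusted p = 0.0422), Slc25a24 in both arms (−0.95 and −1.001, adjusted p = 0.0373 and 0.0391) and Slc25a25 after training (−1.12, adjusted p = 0.0154) passed instead. Slc25a25 after training also passed without the ANT1-/- soleus library A76 (−1.22, adjusted p = 0.0267).

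Training, the intervention of the study, moved none of the carriers past the test. In soleus 0% of genes passed in ANT1-/- (350 at an unadjusted p under 0.05), 0% for the mean of strains (536) and 0% for a difference of the response among strains (984) by edgeR, where DESeq2 called 1, 0 and 0. In heart all 3 tests gave 0% by edgeR (353, 538 and 644 at an unadjusted p under 0.05) and DESeq2 called 1 in each. Averaged over strains, the members tested differed by −0.23 ± 0.18 (Slc25a25) to 0.10 ± 0.05 (Slc25a23) in soleus and by −0.28 ± 0.14 (Slc25a4) to 0.10 ± 0.10 (Slc25a24) in heart. The Slc25a4 average includes the residual reads of ANT1-/-. In heart it differed by 0.10 in ND5S204F, −0.29 in ND6P25L and −0.07 in CO1V421A. Averaged in the same way, Slc25a5 differed by 0.03 ± 0.07 in soleus and 0.03 ± 0.08 in heart, and Slc25a3 by 0.06 ± 0.04 and −0.06 ± 0.11. Within ANT1-/-, the residual Slc25a4 reads differed after training by −0.44 ± 0.16 in soleus (unadjusted p = 0.00936) and −0.85 ± 0.29 in heart (unadjusted p = 0.00539), and neither passed over all genes in edgeR (adjusted p = 0.9999). Slc25a25 in ANT1-/- heart differed by 0.46 ± 0.25 and in the other strains by −0.13 to −0.19, and the test of strain by training gave an adjusted p of 0.9999. For Slc25a24 in soleus the strains spread from −0.70 ± 0.30 in ND5S204F to 0.61 ± 0.32 in ND6P25L, with an adjusted p of 0.679 for the difference. Trained animals labelled as responders and non-responders to exercise were compared in soleus over strains, where 0% of 13843 genes passed in edgeR (622 at an unadjusted p under 0.05) and DESeq2 called 0. The members differed between these by −0.34 ± 0.22 (Slc25a25) to 0.11 ± 0.08 (Slc25a23).

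**Figure D5:**
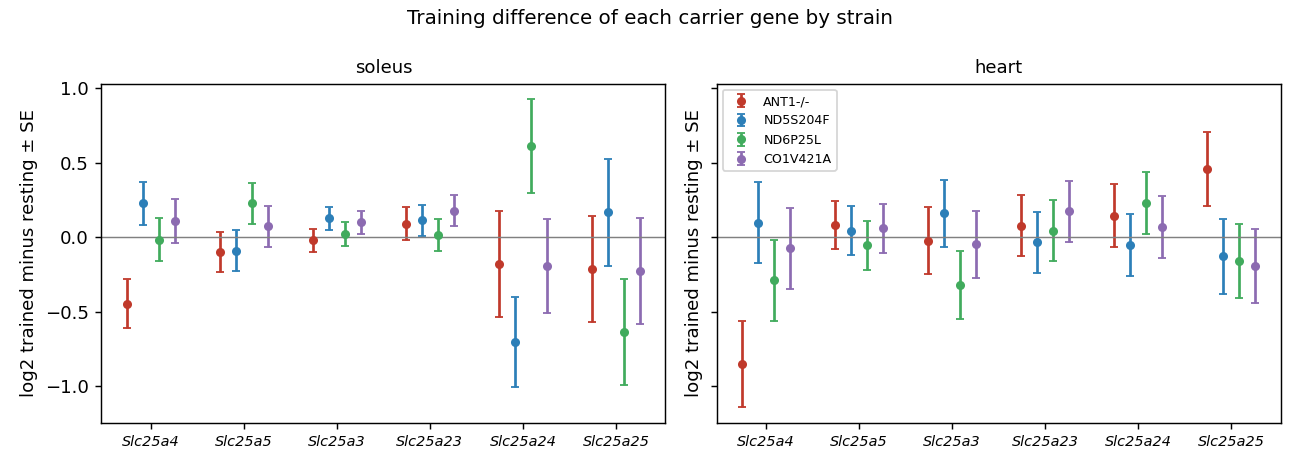
Log2 difference of trained minus resting libraries (± SE) for 6 carriers by strain in soleus (left) and heart (right). The residual Slc25a4 of ANT1-/- lies at −0.44 in soleus and −0.85 in heart. Tests were reported for ANT1-/- alone, the mean of strains and a difference among strains, and no carrier passed them over all genes.

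Genes that work beside the carriers were counted from lists set by function, to be read beside the 47.7% of all genes that passed in resting soleus (22.4% higher, 25.4% lower), 43.5% in trained soleus, 0.916% in resting heart and 4.78% in trained heart. These lists were counted on the TMM scale only. With all counts as the library size the median gene of resting ANT1-/- soleus stood at −0.69. Whether the genes named below stay higher on that scale was not tested. Of 20 tested partners of the translocators (porins, creatine and adenylate kinases, hexokinases and pore regulators) 12 were higher and 4 lower in resting ANT1-/- soleus, and 13 and 4 after training. The 3 with the smallest p were Ckmt2, the mitochondrial creatine kinase of muscle (1.51 ± 0.10, adjusted p = 3.83e-17), Mtch2 (0.46) and the porin gene Vdac2 (0.52). Of 10 genes of mitochondrial calcium handling 4 were higher and 5 lower, led by Slc25a13, an aspartate-glutamate carrier (1.99 ± 0.13, adjusted p = 1.00e-16), Letm1 (0.67) and Smdt1, a uniporter subunit (0.48). Of 9 other nucleotide and cofactor carriers 3 were higher and none lower, among them Slc25a47 (0.75) and Slc25a42, the coenzyme A carrier (0.44). Of 3 genes that bring phosphate across the cell membrane Slc20a1 was higher (1.25), the exporter Xpr1 lower (−0.37), and Slc20a2 differed by 0.19 (adjusted p = 0.0835). Of 5 uncoupling protein genes 2 were lower, Ucp2 (−0.85) and Slc25a30 (−0.36), and Slc25a14 differed by 0.36 (adjusted p = 0.141). In resting heart 0 genes of these 5 lists passed, and in trained heart 1 of 21 partners, 1 of 10 calcium genes and 1 of 3 phosphate genes, each higher.

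The genes whose levels followed each carrier most closely were found over the 48 libraries of a tissue after each group's mean was subtracted, as Pearson's r of log2 CPM, which describes libraries that share depth and tissue make-up. Slc25a3 ran with Atp5a1 (0.95), Uqcrc1 (0.92) and Vegfb (0.91) in soleus and with Mdh1, Atp5a1 and Atp5g1 (0.99 each) in heart. Slc25a5 ran with Pgam1 (0.86), Syt12 (0.83) and Cdk8 (0.81) in soleus and Phospho2 (0.92), Mavs (0.90) and Armc1 (0.90) in heart. Slc25a24 ran with Tuba1b (0.90), S100a6 (0.89) and Vim, the filament gene of fibroblasts and other mesenchymal cells (0.88), in soleus and with Emp1 (0.89), Anxa2 (0.86) and Sh3pxd2b (0.85) in heart. Slc25a25 ran with Per1 (0.80), Jade2 (0.74) and Arrdc3 (0.74) in soleus and with Csrnp1 (0.85), Zfp36 (0.76) and Irs2 (0.74) in heart. Slc25a23 had the lowest leading value in soleus (Cnksr2, 0.71, then Meis1, 0.69, and Myh7b, 0.65) and ran with Crlf3 (0.93), Tnk2 (0.92) and Ddr1 (0.91) in heart. In heart Slc25a31 ran with Ears2 (0.77), Egflam (0.75) and Dnaaf3 (0.75). Among the members, Slc25a4 and Slc25a3 had an r of 0.49 in soleus and 0.89 in heart. These values include the ANT1-/- libraries, which held only residual Slc25a4 reads, and in heart B80. Slc25a5 and Slc25a25 had −0.73 in soleus, and Slc25a3 and Slc25a24 had −0.67 there.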

How the data were processed

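The authors deposited expected counts and FPKM values per gene as tables of each tissue. The submitters' processing notes name STAR 2.5.2b, RSEM 1.2.28 and mm10, with roles not given in the sources used here. Deposited expected counts were rounded and used for every test, and deposited FPKM only to set genes side by side per length. There were 48 columns with no matching sample (24 of counts, 24 of FPKM), which were not used. Counts were scaled by TMM, filtered with filterByExpr by group (13935 genes in soleus, 15723 in heart, 16172 over both, 13843 for the response labels) and tested with edgeR 4.0.16's quasi-likelihood test in R 4.3.3, with Benjamini-Hochberg adjustment over all genes tested and a threshold of 0.05. All groups of a tissue shared 1 estimate of the spread. For the comparison with the respiratory chain, the geometric mean count of 71 nuclear genes replaced TMM. The test was checked on simulated data. No library pair within a group (120 pairs a tissue) held identical values or agreed within sampling noise.

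Alternatives were DESeq2 1.42.0, no filter on low counts, library sizes without the mtDNA genes, each mtDNA strain alone as the reference, marker scores as covariates, each library left out, a block on the library code (limma 3.58.1) and, chosen after seeing the data, all counts as the library size. Positions are those of GENCODE vM21, and promoters are from RefSeq. All 7 members were named in every comparison, with the 3 genes of smallest p of each function list in resting soleus and the 3 genes most like each member. One gene that this rule names is not reported here. The members and lists were chosen with earlier results of these data known.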

Additional observations from a re-analysis of the deposited data

Results flagged for a closer look

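Single libraries stood far from the other 5 of their group in 8 of 97 sets checked, each 1 gene in 1 group. The rule's rate of about 1 in 20 assumes independent, normally spread values. These sets share libraries, so that rate gives no expected count here. The resting CO1V421A heart library E75 was the highest for Slc25a23 at 39.7 CPM (others 28.005 to 32.2) and the lowest for Slc25a3 at 1214 CPM (others 1329 to 1385) and Slc25a5 at 166 CPM (others 216 to 240). For Slc25a24, the resting ANT1-/- soleus library A82 was high at 6.75 CPM (others 2.53 to 4.08) and the resting ND5S204F heart library B80 at 17.9 CPM (others 7.06 to 11.03). For Slc25a25, the trained ANT1-/- soleus library A76 was high at 51.0 CPM (others 12.8 to 22.3) and the resting ND5S204F heart library B21 at 14.9 CPM (others 7.16 to 9.52). For Slc25a3 the trained ND5S204F soleus library B9 was low at 842 CPM (others 999 to 1088).

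The ANT1-/- effect differed between soleus and heart, by a test of the difference itself in edgeR, for Slc25a4 (1.82 at rest and 2.02 after training on the log2 scale), Slc25a5 (0.76 at rest and 0.53 after training) and Slc25a3 (0.61 at rest). On the scale of all counts the difference of Slc25a4 passed in both arms, and those of Slc25a5 and Slc25a3 did not.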

How the results depend on the processing

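Depth limits Slc25a31 most, at no more than 24 counts a library. In soleus the calls on Slc25a4, Slc25a5, Slc25a3 and Slc25a23 held under every alternative listed above, and those on Slc25a24 did not. The scale of the respiratory chain genes was a separate comparison and is not among those alternatives. On that scale neither Slc25a5 (0.23 at rest, 0.19 after training) nor Slc25a3 (0.04 and 0.06) passed in soleus. The calls on Slc25a5 and Slc25a3 thus depend on the scale. Slc25a4, Slc25a23 and Slc25a24 passed as lower there, as did 87.4% of all genes at rest and 82.7% after training. The counts of genes that passed moved by more than 1.5 times as follows, and the cause was not tested. With all counts as the library size they were 11953 for ANT1-/- in resting soleus, 11269 in trained soleus, 1436 in resting heart and 1651 in trained heart, 2769 and 1288 among the mtDNA strains in soleus and heart, and 5485 and 3560 for the tissue difference at rest and after training. With no filter on low counts they were 347 in trained heart, 327 among the mtDNA strains in heart, 1186 for the tissue difference at rest, 17 for the responders and 1 for training in ANT1-/- soleus. DESeq2 gave 1106 among the mtDNA strains in heart, 160 and 288 relative to the respiratory chain in resting and trained heart, and 1 in each of 4 training tests. Against ND5S204F alone 736 genes passed in resting and 300 in trained heart, against ND6P25L 4297 in resting soleus, 38 in resting and 432 in trained heart, and against CO1V421A 65 and 204 in heart. The connective tissue covariate gave 4044 in resting soleus and the atrial covariate 1036 and 1476 in heart. With single libraries left out, the counts ran from 68 to 242 in resting heart, 186 to 1155 in trained heart, 64 to 277 relative to the respiratory chain in trained heart, 3 to 1365 among the mtDNA strains in heart (3 without B80) and 6 to 2437 in soleus.

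Changes of sign touched members that had not passed, apart from Slc25a24 in resting soleus (0.22 with the connective tissue covariate). All counts as the library size turned Slc25a25 in soleus (−0.23, −0.13), Slc25a5 in resting heart (−0.025), Slc25a3 in heart (−0.039, −0.013) and small training differences: Slc25a3 in ANT1-/- (0.023 soleus, 0.047 heart) and over strains in heart (0.027), Slc25a5 over strains in soleus (−0.0043) and Slc25a25 over strains in heart (0.074). Slc25a3 between the tissues was −0.022 on that scale, −0.035 without the mtDNA genes, −0.043 with no filter and −0.015 in DESeq2. The connective tissue covariate gave −0.089 and −0.069 for Slc25a25 in soleus, the ND6P25L reference −0.068 for Slc25a31 in resting heart, and the CO1V421A reference 0.21 and 0.11 for Slc25a23 in heart. Leaving out single libraries turned values near 0. For training in ANT1-/- they ran from −0.12 to 0.22 (Slc25a23, heart), −0.28 to 0.051 (Slc25a24, soleus), −0.33 to 0.053 (Slc25a31, heart), −0.11 to 0.058 and −0.042 to 0.0027 (Slc25a3, heart and soleus), and −0.0069 to 0.20 and −0.16 to 0.020 (Slc25a5, heart and soleus). Over strains they ran from −0.077 to 0.062 (Slc25a25, heart), −0.27 to 0.0079 (Slc25a31, heart) and −0.058 to 0.0084 (Slc25a4, soleus). The others were −0.20 to 0.043 (Slc25a24, responders), −0.37 to 0.0059 (Slc25a25, tissue difference at rest), −0.067 to 0.040 (Slc25a3 between tissues), and, relative to the respiratory chain in heart, −0.025 to 0.028 and −0.050 to 0.0092 (Slc25a3) and −0.11 to 0.025 and −0.075 to 0.088 (Slc25a5).

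The block on the library code used 19 codes found in both tissues, 1 of them (B80) with conflicting treatment labels. Over 7268 genes the paired deviations had a median r of 0.13, from −0.39 to 0.49, and 11 codes exceeded 0.1. Libraries of different codes were not compared in this way, so these values cannot decide whether a shared code is a shared animal. In the main tests the codes were not taken to pair the libraries. With the block 1248 genes passed for the tissue difference at rest and 1097 after training, against 1227 and 1011 in limma without it, and 12399 against 12355 between the tissues of the mtDNA strains. The block changed no call on a member in limma. In limma without it the resting tissue difference of Slc25a3 did not pass (0.57, adjusted p = 0.0760), and Slc25a24 between the tissues did (−0.33, adjusted p = 0.0410).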
